A study of Mus musculus with 12 samples.

Results

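The genes described here are those of metallothioneins and cellular zinc handling in mouse liver: the metallothioneins Mt1 and Mt2, the zinc-sensing transcription factor Mtf1, the exporters Slc30a1 and Slc30a10, and the importers Slc39a4, Slc39a5, and Slc39a8. The 8 genes were taken by symbol from a table of 22456 genes and were chosen with their levels in these livers known, so their own levels are described with errors and without tests. RNA-Seq had been run on liver of male BALB/cByJ mice aged 2 to 8 months, with 3 mice of each genotype, Lpin1+/+ and Lpin1-/-, killed fasted and 3 killed refed. Lpin1-/- mice carry the fatty liver dystrophy allele in every cell, lack lipin 1 throughout life, and were compared with their WT littermates, with no other allele or agent stated for any group. All mice were caged singly and fasted for 16 hours overnight, and refed mice then had chow for 5 hours, so that the groups also differ in the hour of death. Levels are given in RPKM, the reads of a gene per kilobase of its transcript and per 1e6 mapped reads of the library.

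Metallothioneins are small cysteine-rich proteins that bind zinc and copper, and liver makes large amounts of them when zinc, glucocorticoids, or inflammatory signals rise. Free zinc activates MTF1, which binds metal response elements in the promoters of Mt1, Mt2, and Slc30a1. Transporters of the SLC30 family move zinc out of the cytoplasm, and those of the SLC39 family move it in.

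Lpin1, the mutated gene, served as the check of the labels. It had 22.0, 0.726, and 1.76 RPKM in fasted Lpin1+/+ liver, 0.0597, 0.0566, and 0.0368 in fasted Lpin1-/-, 2.92, 0.784, and 2.76 in refed Lpin1+/+, and 0.00573, 0.0238, and 0.00962 in refed Lpin1-/-. All Lpin1-/- libraries lay below all Lpin1+/+ libraries, which varied widely among themselves. The 6 hepatocyte markers (Alb, Ttr, Apoa1, Apoc3, Serpina1c, Ambp) were above 0 in every group, with sums of 36375 to 77630 RPKM, and the 6 markers of pancreatic acinar cells summed to at most 0.470 RPKM. A pair of libraries stood apart in other marker sums. Fasted Lpin1-/- replicate 1 had 457 RPKM of cholangiocyte markers, of which Spp1 gave 430, against 19.6 to 104 in the other libraries. Refed Lpin1+/+ replicate 2 had 253 RPKM of Kupffer cell markers, and fasted Lpin1-/- replicate 1 had 238, against 30.9 to 149 in the rest. In refed Lpin1+/+ replicate 2 most of the sum came from Cd5l (131 RPKM) and Marco (47.2). Its Clec4f, at 32.4 RPKM, lay between the 37.7 and 22.6 of replicates 1 and 3. The low RPKM values showed that the depth of the libraries, in reads assigned to genes, ran from 69.0 M to 94.3 M.

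To show the letters of the metal response element core near the starts of these genes, the 250 bases before the RefSeq start of Mt2, Mt1, and Slc30a1 are printed 5′ to 3′ on the plus strand of GRCm38.p6 (Mt2 at chr8:94172368-94172617, Mt1 at chr8:94178839-94179088, and Slc30a1 at chr1:191906531-191906780). Capitals mark matches to the core TGCACNC or TGCGCNC on either strand, where N is any base.
Mt2: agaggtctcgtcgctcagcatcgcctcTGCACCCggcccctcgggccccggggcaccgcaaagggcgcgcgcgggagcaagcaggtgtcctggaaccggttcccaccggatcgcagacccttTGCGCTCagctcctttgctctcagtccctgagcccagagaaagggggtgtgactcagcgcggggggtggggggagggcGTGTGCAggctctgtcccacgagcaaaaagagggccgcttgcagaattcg
Mt1: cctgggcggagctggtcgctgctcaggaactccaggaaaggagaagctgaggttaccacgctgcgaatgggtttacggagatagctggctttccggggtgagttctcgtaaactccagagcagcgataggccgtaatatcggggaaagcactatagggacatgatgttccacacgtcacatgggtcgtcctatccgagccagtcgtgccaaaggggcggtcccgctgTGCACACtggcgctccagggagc
Slc30a1: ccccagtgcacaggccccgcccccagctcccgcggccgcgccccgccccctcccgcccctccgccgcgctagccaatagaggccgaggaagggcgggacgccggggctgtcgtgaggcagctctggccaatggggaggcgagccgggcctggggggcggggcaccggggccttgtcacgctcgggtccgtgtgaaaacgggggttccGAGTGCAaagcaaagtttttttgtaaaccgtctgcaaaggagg
Mt2 had 3 matches, at 223, 128, and 50 bases before its start, Mt1 had 1 at 23 bases, and Slc30a1 had 1 at 43 bases. Among all 32851 RefSeq promoters, 21.4% held at least 1 match in the same length, and 1.26% held 3 or more. Of the other members, Slc30a10 had 3 matches, of which the pair at 233 and 232 bases overlap on opposite strands, and Mtf1 had 0. Slc39a5 and Slc39a8 each have a pair of starts, of which 1 had 1 match and the other 0, and Slc39a4 had no entry. These are matches of letters in this window and not mapped binding sites. Bases after the RefSeq starts, or over 250 bases before them, were not searched. A gene, Mt1 included, can thus hold more cores than are counted here, and the counts do not rank the promoters.

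Mt1 (ENSMUSG00000031765.8, chr8:94179082-94180327, plus strand) was the highest of the members, with a mean of 6552 RPKM over the 12 libraries. Its level was 2299, 1008, and 675 RPKM in fasted Lpin1+/+ liver and 12544, 20880, and 20116 in fasted Lpin1-/- liver. After refeeding it was 198, 380, and 115 RPKM in Lpin1+/+ and 10108, 5042, and 5254 in Lpin1-/-. None of the 4 groups overlapped another, and the order from low to high was refed Lpin1+/+, fasted Lpin1+/+, refed Lpin1-/-, and fasted Lpin1-/-. Mean Mt1 RPKM was 13.4-fold higher in Lpin1-/- than in Lpin1+/+ liver when fasted and 29.4-fold higher when refed. On the log2(RPKM + 1) scale, the scale of every log2 fold change here, these differences were 3.90 ± 0.527 (SE, n = 3 per group) and 4.96 ± 0.527. The mean was 5.74-fold lower in refed than in fasted Lpin1+/+ liver and 2.62-fold lower in refed than in fasted Lpin1-/- liver, with log2 fold changes of -2.49 ± 0.527 and -1.43 ± 0.527. The genotype differences of Mt1 in refed and fasted liver differed from each other by 1.06 ± 0.746, so their order is uncertain.

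Mt2 (ENSMUSG00000031762.7, chr8:94172664-94173568, plus strand), its neighbor on chromosome 8, had the same order of groups. It was at 1555, 639, and 389 RPKM in fasted Lpin1+/+, 8722, 12861, and 11316 in fasted Lpin1-/-, 71.0, 141, and 48.1 in refed Lpin1+/+, and 5273, 1246, and 2731 in refed Lpin1-/- liver. The lowest refed Lpin1-/- value lay under the highest fasted Lpin1+/+ value, and all other pairs of groups stood apart. By mean RPKM, Mt2 was 12.7-fold higher in fasted and 35.5-fold higher in refed Lpin1-/- liver, with log2 fold changes of 3.89 ± 0.597 and 5.04 ± 0.597. Refed minus fasted Mt2 was -3.20 ± 0.597 in Lpin1+/+ and -2.05 ± 0.597 in Lpin1-/- liver on the log2 scale. For Mt2 the genotype differences in refed and fasted liver differed by 1.15 ± 0.844, which again leaves their order uncertain. An antisense transcript, Gm45774, overlaps Mt2 on the minus strand, and the kit kept the strand of each read, but the strand setting of the count is not given in the sources used here.

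**Figure D1:**
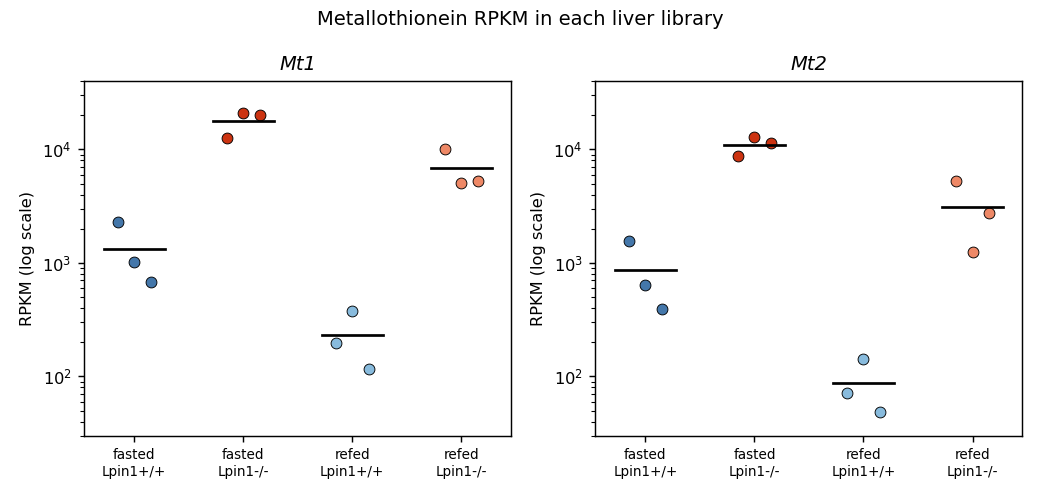
RPKM of Mt1 and Mt2 on a log scale in each of the 12 libraries, with 1 point per library and a line at the mean of 3. The Lpin1-/- points lie above the Lpin1+/+ points of the same feeding state in both panels, and the refed Lpin1+/+ libraries are the lowest, between 115 and 380 RPKM for Mt1 and between 48.1 and 141 for Mt2.

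The metallothioneins were among the most abundant liver transcripts in Lpin1-/- mice. By RPKM, Mt1 ranked 2 to 8 among all genes in fasted and 5 to 16 in refed Lpin1-/- liver, against 39 to 150 in fasted and 269 to 870 in refed Lpin1+/+ liver. Mt1 and Mt2 together took 0.553% to 0.852% of the reads in genes in fasted Lpin1-/- liver, 0.159% to 0.385% in refed Lpin1-/-, 0.0263% to 0.0925% in fasted Lpin1+/+, and 0.00405% to 0.0128% in refed Lpin1+/+. The lowest of these levels, Mt2 in refed Lpin1+/+ replicate 3, still rested on 1063 reads. RPKM of Mt1 over that of Mt2 lay at 1.44 to 1.78 in the 6 fasted libraries, at 2.40 to 2.78 in refed Lpin1+/+, and at 1.92 to 4.05 in refed Lpin1-/- liver. The ratio was thus higher in each refed library than in any fasted one.

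Within groups, neutrophil markers and Fkbp5 stood at the same extreme as Mt1 and Mt2 in some libraries and at the opposite one in others. Fasted Lpin1+/+ replicate 1 had the highest Mt1 and Mt2 of its group, and its summed neutrophil markers were 163 RPKM against 17.7 and 9.02 in replicates 2 and 3. It also had 13.6 RPKM of the clock gene Per1 and 65.1 of the steroid receptor co-chaperone gene Fkbp5, against 2.07 and 0.521 for Per1 and 6.22 and 12.2 for Fkbp5. Without this library the fasted genotype difference was 4.40 for Mt1 and 4.44 for Mt2 on the log2 scale. Fasted Lpin1-/- replicate 1 had the lowest Mt1 and Mt2 of its group with the highest neutrophil sum (186 RPKM) and the lowest Fkbp5 (10.7 RPKM). Refed Lpin1+/+ replicate 2 had the highest Mt1 and Mt2 of its group with 92.4 RPKM of neutrophil markers against 13.2 and 4.66, and with 6039 RPKM of Lcn2, an iron-scavenging protein of inflammation, against 36.0 and 31.6. Its Fkbp5 was the lowest of the group, at 8.47 RPKM. Refed Lpin1-/- replicate 1 had the highest Mt1 and Mt2 with the lowest neutrophil sum (28.8 RPKM) and the highest Fkbp5 (139 RPKM). Stellate cell markers summed to 220 to 315 RPKM in fasted Lpin1-/- and 80.5 to 186 in fasted Lpin1+/+ liver, without overlap, and to 181 to 228 and 83.8 to 212 after refeeding. Dcn made up most of these sums. In fasted liver the genotypes did not overlap for Dcn, Colec11, and Des, and overlapped for Lrat, Reln, and Rgs5. The part of the neutrophil markers, of Fkbp5, or of the stellate cell markers in the metallothionein difference was not tested. In whole liver, fewer cells of a type and less RNA per cell cannot be told apart.

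Across the members, libraries of the compared groups did not overlap for 2 of the 7 genes that reached a mean of 0.5 RPKM in refed against fasted Lpin1+/+ liver (Mt1, Mt2), where 18.1% of all 11507 genes did not overlap. The count was 6 of 7 in refed against fasted Lpin1-/- liver (46.8% of all genes), 4 of 7 for genotype in fasted liver (32.9%), and 6 of 7 for genotype in refed liver (33.9%). Since the members were chosen on these levels, nothing is read from these counts. Slc39a5 was the gene under the minimum.

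Mtf1 (ENSMUSG00000028890.13, chr4:124802104-124849800, plus strand), which encodes the zinc sensor, was low and narrow in range. Its level was 4.45, 3.07, and 4.13 RPKM in fasted Lpin1+/+, 4.15, 3.27, and 3.45 in fasted Lpin1-/-, 4.72, 3.42, and 4.43 in refed Lpin1+/+, and 5.72, 5.89, and 5.27 in refed Lpin1-/- liver. Only the refed Lpin1-/- libraries stood above all others, by 0.36 ± 0.182 over refed Lpin1+/+ and by 0.52 ± 0.182 over fasted Lpin1-/- on the log2 scale, and by 0.40 and 0.22 when each library was rescaled by its median ratio to the others. The fasted genotype difference was -0.07 ± 0.182 and became 0.10 when rescaled, and the difference of refed from fasted Lpin1+/+ liver was 0.09 ± 0.182 and became -0.08.

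Slc30a1 (ENSMUSG00000037434.7, chr1:191906767-191913247, plus strand) encodes the exporter of the plasma membrane and is itself a target of MTF1. Its RPKM was 13.7, 8.63, and 10.4 in fasted Lpin1+/+, 20.7, 34.5, and 21.3 in fasted Lpin1-/-, 7.19, 11.4, and 10.3 in refed Lpin1+/+, and 19.5, 13.2, and 12.0 in refed Lpin1-/- liver. Both Lpin1-/- groups lay above the Lpin1+/+ group of the same feeding state, while the Lpin1+/+ groups overlapped each other. The genotype difference was 1.14 ± 0.268 in fasted and 0.58 ± 0.268 in refed liver on the log2 scale, and the difference of refed from fasted liver was -0.73 ± 0.268 in Lpin1-/- and -0.17 ± 0.268 in Lpin1+/+ mice (-1.08 and -0.36 when rescaled). Across the 12 libraries Slc30a1 followed the metallothioneins with a Pearson r of 0.853, rank 106 of 11505 genes.

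Slc30a10 (ENSMUSG00000026614.6, chr1:185454848-185468762, plus strand), best known as a manganese exporter, was lower in Lpin1-/- than in Lpin1+/+ liver when fasted and higher when refed. It was at 12.0, 10.9, and 12.0 RPKM in fasted Lpin1+/+ and 1.23, 3.89, and 5.32 in fasted Lpin1-/- liver, a difference of -1.62 ± 0.410 on the log2 scale. After refeeding it was at 15.2, 4.26, and 7.25 RPKM in Lpin1+/+ and 24.1, 22.5, and 24.6 in Lpin1-/- liver, a difference of 1.48 ± 0.410. In Lpin1-/- liver mean RPKM of Slc30a10 was thus 6.82-fold higher after refeeding, with no overlap, and the Lpin1+/+ libraries lay between the Lpin1-/- groups or overlapped the fasted one. The difference between the genotype differences was 3.10 ± 0.580, and 2.28 with both libraries that stood apart left out. The lowest level, 1.23 RPKM in fasted Lpin1-/- replicate 1, rested on 178 reads.

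Slc39a4 (ENSMUSG00000063354.7, chr15:76612383-76617384, minus strand), the importer that takes up dietary zinc in the intestine, varied more within groups than between most of them. It was at 11.4, 8.79, and 12.4 RPKM in fasted Lpin1+/+, 51.8, 14.6, and 7.79 in fasted Lpin1-/-, 8.36, 54.6, and 14.0 in refed Lpin1+/+, and 0.702, 4.82, and 6.67 in refed Lpin1-/- liver. Refed Lpin1-/- libraries were lowest and overlapped none of the other groups, by -2.23 ± 0.767 against refed Lpin1+/+ and -2.19 ± 0.767 against fasted Lpin1-/- on the log2 scale. Without both high libraries, fasted Lpin1-/- replicate 1 and refed Lpin1+/+ replicate 2, these differences were -1.48 and -1.47. The fasted genotype difference was 0.72 ± 0.767 with them and 0.00 without.

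The high libraries for Slc39a4 were the pair that stood apart in cell type markers. Slc39a4 followed the summed cholangiocyte markers (Krt7, Krt19, Epcam, Sox9, Spp1, Cldn7) across the 12 libraries with a Pearson r of 0.844 on the log2 scale and a Spearman rho of 0.979, a relation noticed after the values were seen and given as a description. Leaving out the 2 libraries farthest from the median marker sum gave an r of 0.835, and the deviations from the group means gave 0.828. Spp1 made up most of the cholangiocyte sum in every library. It gave 430 of 457 RPKM in fasted Lpin1-/- replicate 1 and 96.1 of 104 in refed Lpin1+/+ replicate 2. The other markers were also highest of their groups in both libraries. In the refed one Sox9 was 2.74 RPKM against 1.46 and 0.891, and Krt19 only 1.55 against 1.48 and 1.17. For the Kupffer cell markers r was 0.790, and 0.602 without the 2 farthest libraries. Refed Lpin1-/- liver, lowest in Slc39a4, had cholangiocyte marker sums of 19.6 to 28.4 RPKM, against 32.3 to 104 in refed Lpin1+/+ liver. The 12 points fall into the 4 groups, and each compares measures of 1 library and depth, and the part of these cells in the level of Slc39a4 was not tested.

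**Figure D2:**
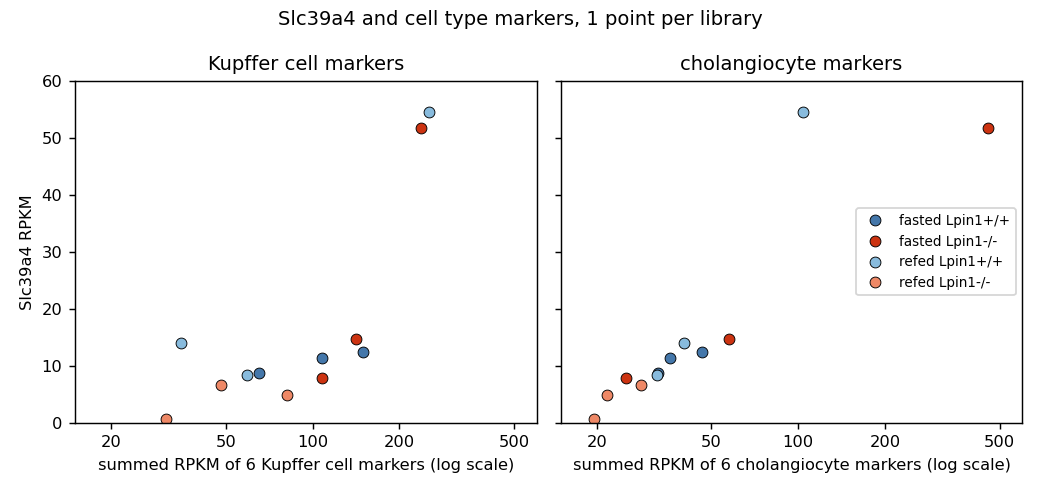
Slc39a4 RPKM against the summed RPKM of 6 Kupffer cell markers and of 6 cholangiocyte markers, with a linear y axis and a log x axis, and 1 point per library colored by group. The libraries at 51.8 and 54.6 RPKM lie at the right of both panels, and the refed Lpin1-/- libraries lie at the lower left of the cholangiocyte panel.

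The other importers showed smaller differences. Slc39a8 (ENSMUSG00000053897.15, chr3:135825279-135888572, plus strand), which carries zinc and manganese, was at 13.0, 8.16, and 10.6 RPKM in fasted Lpin1+/+, 3.52, 6.90, and 9.40 in fasted Lpin1-/-, 9.07, 6.36, and 5.95 in refed Lpin1+/+, and 9.16, 6.83, and 6.59 in refed Lpin1-/- liver. All pairs of groups compared overlapped, and the log2 differences ran from -0.67 ± 0.299 for genotype in fasted liver to 0.23 ± 0.299 for refeeding in Lpin1-/- liver, which became -0.08 when rescaled. Slc39a5 (ENSMUSG00000039878.13, chr10:128395931-128401229, minus strand, within the span of Ankrd52 on the other strand) stayed between 0.134 and 0.543 RPKM, on 22 to 98 reads, with group means of 0.334 to 0.383. At this depth no difference between groups could be seen for Slc39a5.

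**Figure D3:**
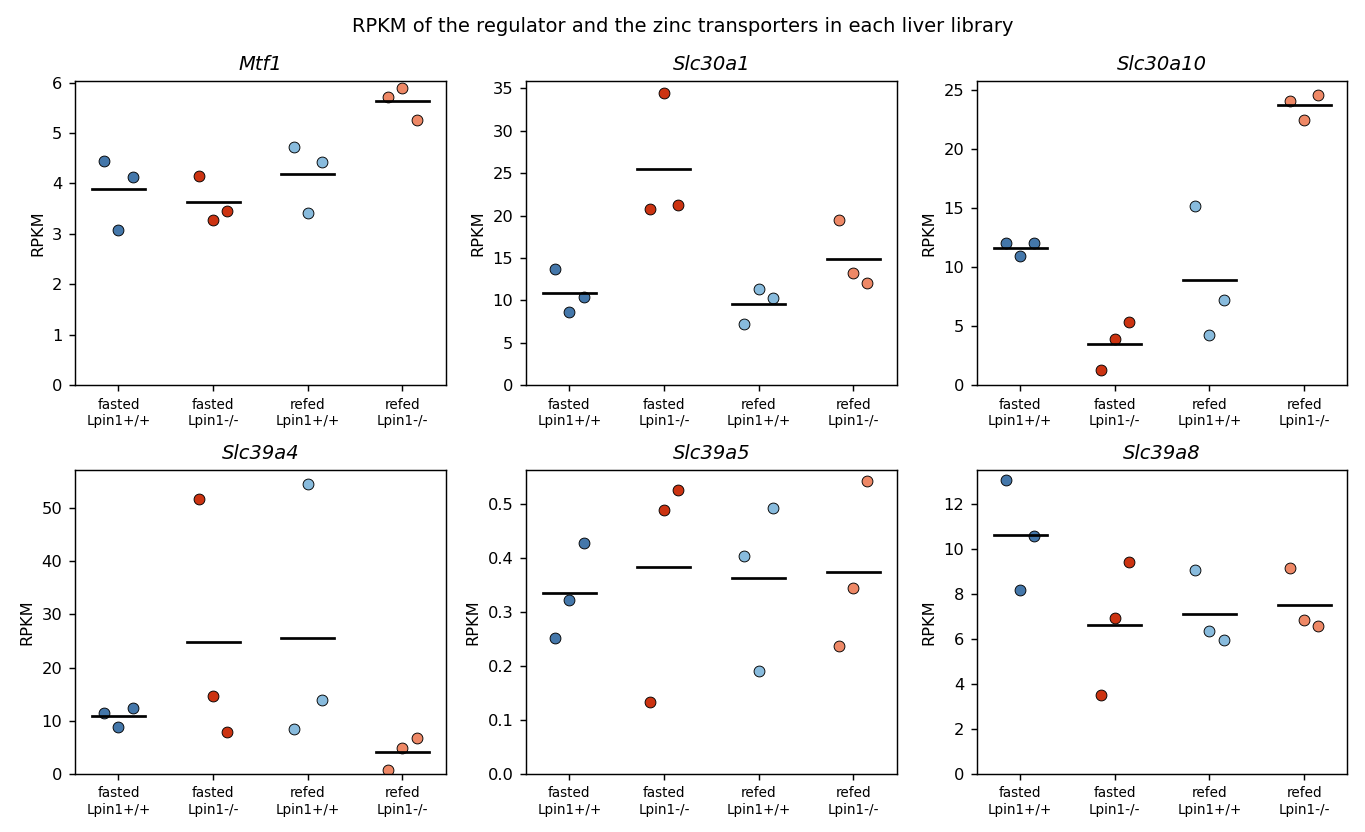
RPKM of Mtf1 and the 5 transporters in each of the 12 libraries on linear axes, with 1 point per library and a line at the mean of 3. Slc30a10 is lowest in fasted and highest in refed Lpin1-/- liver, and Slc39a4 has 1 library near 52 RPKM in fasted Lpin1-/- and 1 near 55 in refed Lpin1+/+ liver.

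The pattern of the metallothioneins was next compared with that of every gene that reached the minimum, by Pearson correlation over the 12 libraries with the mean of their centered log2 levels. The most similar genes were Fam134b (0.964), a receptor for autophagy of the endoplasmic reticulum, Gpcpd1 (0.962), a glycerophosphocholine phosphodiesterase, Got1 (0.950), the cytoplasmic aspartate aminotransferase, Ctsl (0.946), the lysosomal protease cathepsin L, and Ppil6 (0.943). At the opposite end were Nthl1 (-0.973), a DNA glycosylase, Smyd2 (-0.967), a lysine methyltransferase, and Tars2 (-0.966), the mitochondrial threonyl-tRNA synthetase. Ctsl, for example, had 812 to 1412 RPKM in fasted Lpin1+/+, 5495 to 12004 in fasted Lpin1-/-, 382 to 736 in refed Lpin1+/+, and 5388 to 5711 in refed Lpin1-/- liver. The other members did not follow the metallothioneins as Slc30a1 did. Mtf1 had an r of 0.00 (rank 4007), Slc39a8 of -0.10 (rank 4776), Slc30a10 of -0.17 (rank 5382), and Slc39a4 of -0.21 (rank 5625). These are descriptions over 12 libraries that fall into 4 groups.

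To place the members among the rest of their families, 21 other zinc transporter and metallothionein genes, which are not members, were tested with limma over all 11507 genes, and 17 of them reached the minimum. The other 4, Mt4, Slc30a2, Slc30a8, and Slc39a12, had at most 29 reads in any library. In fasted liver, 7 of the 17 differed by genotype (adjusted p under 0.05), 2 higher and 5 lower in Lpin1-/-, where 18.8% of all genes passed. Their median log2 fold change was -0.12 against -0.14 over all genes. In refed liver, 2 of the 17 differed by genotype, 1 in each direction (6.67% of all genes passed), with a median of -0.19 against -0.07.

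Slc39a14, a zinc and iron importer of hepatocytes that inflammation is known to raise, was higher in Lpin1-/- liver in both states. It was at 48.1, 17.8, and 19.3 RPKM in fasted Lpin1+/+ and 75.2, 140, and 201 in fasted Lpin1-/- liver, 4.89-fold higher by the mean (limma log2 fold change 2.29 ± 0.517, adjusted p = 0.0116). Without fasted Lpin1+/+ replicate 3 the adjusted p was 0.0538. After refeeding Slc39a14 was at 35.4, 22.8, and 37.9 RPKM in Lpin1+/+ and 265, 88.1, and 79.7 in Lpin1-/- liver (limma 1.94 ± 0.517, adjusted p = 0.0475). The groups did not overlap, but the refed call held in only 2 of the 12 fits that left out 1 library, with limma adjusted p up to 0.162. It was also lost with both libraries that stood apart left out. With the replicate number as a block the limma adjusted p of Slc39a14 was 0.0640 over all groups and 0.0488 in the refed groups alone.

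Slc39a2, an importer of the plasma membrane, showed the reverse in fasted liver. It had 5.08, 5.81, and 6.83 RPKM in fasted Lpin1+/+ and 0.294, 0.289, and 0.610 in fasted Lpin1-/- liver, 14.8-fold lower by mean RPKM (limma log2 fold change -2.30 ± 0.292, adjusted p = 0.00069). The fasted Lpin1-/- values rested on 28 to 61 reads. At such low levels the 1 RPKM added before the log makes the log2 fold change smaller than the ratio of means. In refed liver Slc39a2 had 5.57, 5.94, and 2.84 RPKM in Lpin1+/+ and 1.85, 3.44, and 4.88 in Lpin1-/-, and these overlapped. Slc30a5, which loads zinc into the secretory pathway, fell from 15.1 to 18.9 RPKM in fasted Lpin1+/+ to 6.64 to 8.15 in fasted Lpin1-/- (limma -1.04 ± 0.151, adjusted p = 0.00138). The calls of Slc39a2 and Slc30a5 in fasted liver held in all 12 fits that left out 1 library. Slc39a9, a Golgi importer, was lower as well (limma -1.21 ± 0.289, adjusted p = 0.0146), but not past the threshold without fasted Lpin1+/+ replicate 3 or fasted Lpin1-/- replicate 1 (adjusted p up to 0.0553). Mt3, the metallothionein of brain, was called higher (limma 0.70 ± 0.193, adjusted p = 0.0274) at 0.757 to 1.54 RPKM against 0.188 to 0.366, on 4 to 33 reads, and lost the call without fasted Lpin1+/+ replicate 2 or 3 or fasted Lpin1-/- replicate 1 or 2 (adjusted p up to 0.102). In refed liver Slc39a10, an importer of the plasma membrane, was lower in Lpin1-/- at 0.578 to 0.819 RPKM against 1.20 to 1.92 (limma -0.62 ± 0.154, adjusted p = 0.0379), a call that held in 4 of 12 such fits, with adjusted p up to 0.132. With the replicate number as a block it was lost (limma adjusted p = 0.0643 over all groups and 0.115 in the refed groups alone).

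With refeeding, 2 of the 17 genes rose in Lpin1+/+ liver (1.72% of all genes passed) and 7 differed in Lpin1-/- liver, 6 higher and 1 lower (20.7%). In Lpin1+/+ these were Slc39a10, from 0.147 to 0.433 RPKM fasted to 1.20 to 1.92 refed (limma log2 fold change 1.01 ± 0.154, adjusted p = 0.012), and Slc39a7, which releases zinc from the endoplasmic reticulum (limma 1.08 ± 0.210, adjusted p = 0.0294). Slc39a10 lost the call without fasted Lpin1+/+ replicate 2 or refed Lpin1+/+ replicate 1 (adjusted p up to 0.060), and Slc39a7 kept it in 5 of 12 such fits (up to 0.119). In Lpin1-/- liver the largest increases were of Slc39a2 (limma 1.60 ± 0.292, adjusted p = 0.00432), Slc30a5 (limma 1.32 ± 0.151, adjusted p = 0.000589), and Slc30a9, a transporter of mitochondria (limma 1.09 ± 0.180, adjusted p = 0.00264), each called in all 12 fits that left out 1 library. Mt3 was lower after refeeding (limma -0.76 ± 0.193, adjusted p = 0.018), and not past the threshold without fasted Lpin1-/- replicate 1 or 2 or refed Lpin1-/- replicate 2 (adjusted p up to 0.0856). The median of the 17 genes was 0.26 in Lpin1+/+ and 0.44 in Lpin1-/-, against 0.19 and 0.25 over all genes. No gene of the list passed the limma test of the difference between the genotype effects in fasted and refed liver (5 of 17 at an unadjusted p under 0.05, and 1.28% of all genes passed), while under other settings Slc39a2 or Slc30a5 passed, for example Slc39a2 on the reads recovered from the RPKM (limma voom, adjusted p = 0.0443).

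**Figure D4:**
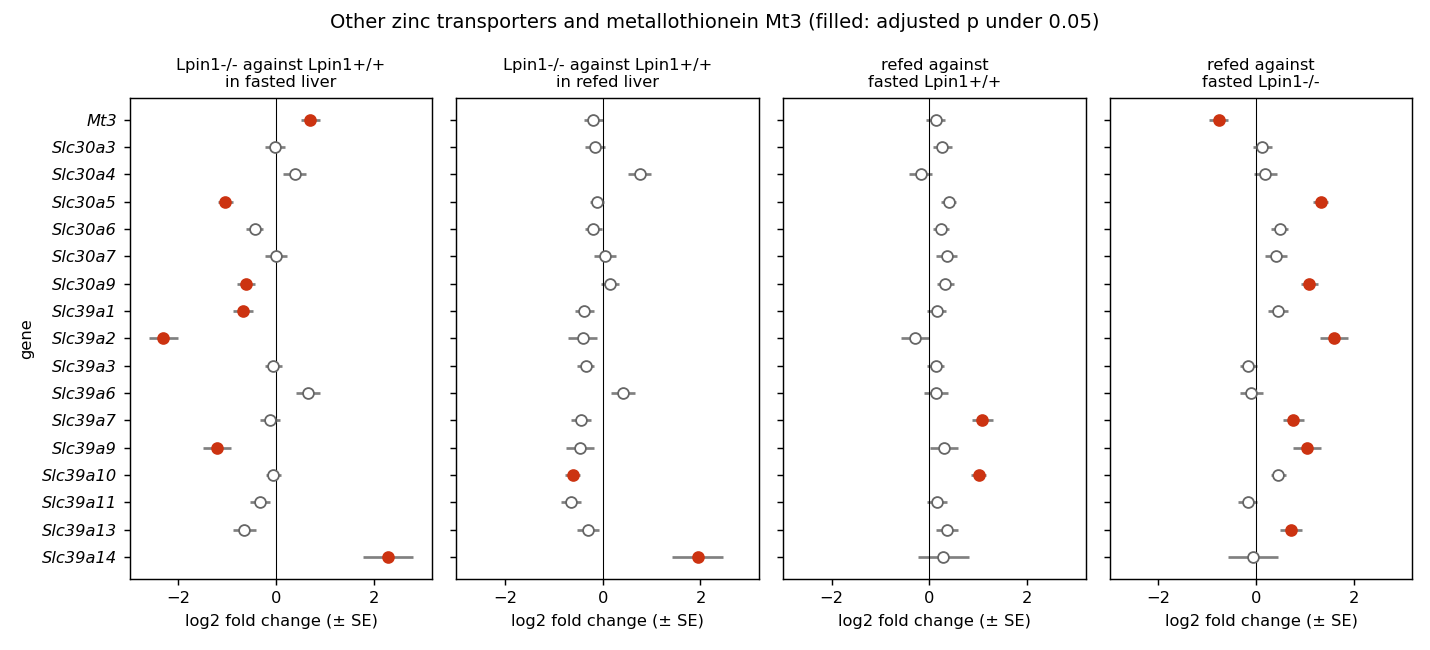
Log2 fold change with SE of 17 other zinc transporter and metallothionein genes in 4 comparisons of 3 against 3 libraries, on the log2(RPKM + 1) scale. Filled points have a limma adjusted p under 0.05, and Slc39a14 at 2.29 and Slc39a2 at -2.30 lie farthest from 0 in fasted liver.

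Metallothioneins also bind copper and are induced by glucocorticoids, so genes of both kinds were examined in the same fit. Both lists were chosen with earlier results of these data known. Of 14 copper handling genes, 6 differed by genotype in fasted liver, 1 higher and 5 lower (18.8% of all genes passed), with a median of -0.17 against -0.14 over all genes. The largest decreases were of Steap3, an endosomal metalloreductase (limma log2 fold change -1.36 ± 0.269, adjusted p = 0.0062), Atp7b, which exports copper to bile (limma -1.32 ± 0.306, adjusted p = 0.0129), and Slc31a1, the copper importer (limma -1.12 ± 0.157, adjusted p = 0.00105). Steap4, another metalloreductase, was higher (limma 1.83 ± 0.453, adjusted p = 0.017), and lost the call without fasted Lpin1+/+ replicate 3 or fasted Lpin1-/- replicate 2 or 3 (adjusted p up to 0.068). Atp7b lost the call with both libraries that stood apart left out and with only the fasted groups in the fit (limma adjusted p up to 0.0516). In refed liver, where 6.67% of all genes passed, the only copper gene called was Steap3 (limma -1.16 ± 0.269, adjusted p = 0.0286, up to 0.112 with 1 library left out and called in 7 of 12 such fits). Refeeding raised 3 of 14 in Lpin1-/- liver (Atp7b, Sco1, Slc31a1), a share near that of all genes (20.7%), of which Slc31a1 lost the call when libraries were rescaled (limma adjusted p = 0.196) and Atp7b with both libraries that stood apart left out (0.0510). In Lpin1+/+ liver limma called 0 (1.72% of all genes passed), with 2 at an unadjusted p under 0.05.

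Of 14 glucocorticoid-responsive genes, 5 were higher in fasted Lpin1-/- than in fasted Lpin1+/+ liver and none was called lower (18.8% of all genes passed), and the list's median was 1.20 against -0.14 over all genes. They were Cdkn1a, a cell cycle inhibitor (limma log2 fold change 4.24 ± 0.771, adjusted p = 0.00392), Dusp1, a MAP kinase phosphatase (limma 2.88 ± 0.427, adjusted p = 0.00148), Per1 (limma 2.55 ± 0.657, adjusted p = 0.0201), Sds, the serine dehydratase of amino acid breakdown (limma 2.51 ± 0.307, adjusted p = 0.000583), and Sgk1, a serum-induced kinase (limma 2.07 ± 0.479, adjusted p = 0.0129). Per1 lost the call without fasted Lpin1+/+ replicate 2 or 3 or fasted Lpin1-/- replicate 2 (adjusted p up to 0.0807), and Sgk1 without fasted Lpin1+/+ replicate 3 (0.0618). Of the 14 genes, 13 had a log2 fold change above 0 in fasted liver, called or not. Pck1 went the other way, with a mean of 808 RPKM in fasted Lpin1-/- and 1397 in fasted Lpin1+/+ liver. Since the list was chosen with earlier results of these data known, its counts and medians are descriptions. Fkbp5, Tsc22d3, and Zbtb16 were among those not called, and Fkbp5 had 65.1, 6.22, and 12.2 RPKM in fasted Lpin1+/+ and 10.7, 52.7, and 64.6 in fasted Lpin1-/- liver. Summed neutrophil markers overlapped between these groups, at 56.8 to 186 RPKM in Lpin1-/- and 9.02 to 163 in Lpin1+/+, and their part was not tested. In refed liver 3 genes were higher in Lpin1-/- (6.67% of all genes passed), Dusp1, Sds, and Tdo2, the tryptophan dioxygenase, with a list median of 1.45 against -0.07. Tdo2 (limma log2 fold change 1.48 ± 0.254, adjusted p = 0.00813) held in all 12 fits that left out 1 library, Dusp1 was lost without refed Lpin1-/- replicate 1 or 2 (adjusted p up to 0.0625), and Sds without refed Lpin1-/- replicate 1 (0.0539). With the replicate number as a block in the refed groups alone, the limma adjusted p of Tdo2 was 0.0553 and Dusp1 and Sds kept the call. Refeeding lowered 2 of 14 in Lpin1-/- liver (20.7% of all genes passed), of which Sds held in 8 and Sgk1 in 4 of 12 such fits (limma adjusted p up to 0.105 and 0.129), and limma called 0 in Lpin1+/+ liver, with 0 at an unadjusted p under 0.05.

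Exon inclusion, which the rule for the members does not use, was tested for their skipped exon events from rMATS counts. It comes from the same libraries, and the counts of an event fall with the level of its gene, as for Slc30a10 in fasted Lpin1-/- liver. Of 21 member events tested in fasted liver, 4 differed by genotype (11.3% of all 69644 events passed), and of 17 in refed liver 0 differed by limma (0.97% of all 65231 events passed), with 1 at an unadjusted p under 0.05. These events belong to a pair of exons. The first is a 62-base exon of Mtf1 (chr4:124803285-124803346, GRCm38), annotated as part of the 5′ untranslated region of the transcript Mtf1-203. In fasted Lpin1+/+ liver its counts were 3, 0, and 6 for inclusion and 90, 37, and 78 for skipping, and in fasted Lpin1-/- liver 60, 49, and 26 for inclusion and 80, 74, and 66 for skipping. Its mean inclusion, with counts divided by the lengths of the forms, was 1.86% ± 1.94 (SD, n = 3) in fasted Lpin1+/+ and 23.7% ± 5.83 in fasted Lpin1-/- liver, without overlap (limma log2 ratio 4.06 ± 0.769, adjusted p = 0.00524). A 146-base form that starts at the same base and shares the skipping counts was also called (limma 4.51 ± 0.849, adjusted p = 0.00512), and both calls held with each library left out (limma adjusted p up to 0.0485). After refeeding the exon was included at 3.73% ± 5.73 in Lpin1+/+ and 0.578% ± 1.00 in Lpin1-/- liver (limma -1.97 ± 1.26, adjusted p = 0.530).

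The other exon lies in Slc30a10 (chr1:185462764-185462926, 163 bases of the 240-base coding exon 3 of Slc30a10-201) and was included less in fasted Lpin1-/- liver. Inclusion counts were 378, 347, and 348 in fasted Lpin1+/+ and 26, 105, and 162 in fasted Lpin1-/- liver, while skipping counts were 0, 2, and 0 and 4, 9, and 1. Mean inclusion was 99.4% ± 1.11 and 80.4% ± 16.3 (limma log2 ratio -4.45 ± 1.07, adjusted p = 0.0183), and the whole 240-base exon, with the same skipping counts, was called too (limma -4.42 ± 1.10, adjusted p = 0.0218). The call rested on at most 9 skipping counts in a library. It held in 2 of the 6 fits that left out 1 library and was lost without 2 of the Lpin1+/+ libraries (positions 1 and 3 of the list) or 2 of the Lpin1-/- libraries (positions 1 and 2), each left out alone (limma adjusted p up to 0.121 for the shorter form). In refed liver its mean inclusion was 100% in Lpin1+/+ and 99.0% ± 1.37 in Lpin1-/- liver.

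**Figure D5:**
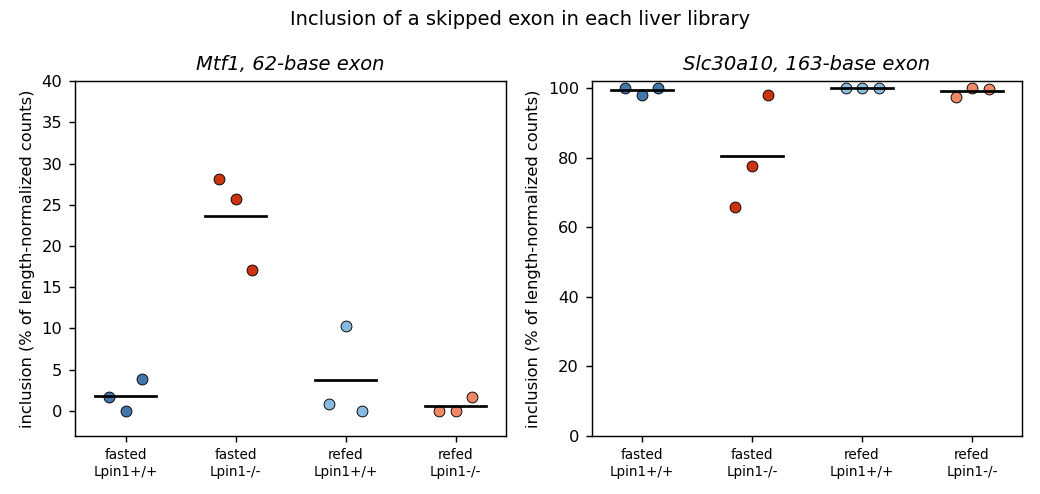
Inclusion of the 62-base exon of Mtf1 and the 163-base exon of Slc30a10 in each library, as percent of length-normalized counts, with 1 point per library and a line at the mean of 3. Fasted Lpin1-/- liver lies above the other groups for Mtf1, at a mean of 23.7%, and has the lowest mean for Slc30a10, at 80.4%.

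For the metallothioneins themselves the abundant form hardly varied. A 63-base Mt1 exon (chr8:94179823-94179885) had 78359, 140863, and 134488 inclusion counts and 49, 22, and 11 skipping counts in fasted Lpin1-/- liver. It had 0 skipping counts in every Lpin1+/+ library, but on fewer inclusion counts, 14497, 6369, and 4537 fasted and 1166, 2714, and 798 refed. A 28-base exon of Mt2 (chr8:94173011-94173038) was included at 0.0154% ± 0.0163 in fasted Lpin1+/+ and 0.0119% ± 0.00622 in fasted Lpin1-/- liver. Inclusion of the 137-base exon of Slc30a1 was between 0.316% and 1.87% on average in each group, that of the 285-base exon of Slc39a4 between 95.8% and 100%, and that of the 163-base exon of Slc39a8 at least 99.7% in fasted liver. None of these events was called. A 51-base exon of Slc30a10 (chr1:185456156-185456206) had the most counts of a rarer form in that gene but under 10 counts in 1 library, and was not tested. Its inclusion counts were 17, 18, and 29 with 148, 73, and 115 skipping counts in fasted Lpin1+/+, and 2, 4, and 3 with 1, 22, and 55 in fasted Lpin1-/- liver. No event of Slc39a5 reached 10 counts in every library of a feeding state.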

How the data were processed

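RNA-Seq libraries from 12 livers, each of a separate mouse, were made with a kit that keeps strand and read as pairs of 69 bases over 6 lanes. Reads were aligned to GRCm38 with HISAT2 2.0.5 and counted with HTSeq 0.6.0, versions that the submitters' processing notes give together with DESeq2 1.20.0. The authors deposited RPKM for 22456 genes and, from rMATS, raw inclusion and skipping counts of skipped exon events with the lengths of both forms. Their p-values, FDR values, and inclusion differences were not used. Which list of counts was Lpin1+/+ was set from the authors' Lpin1+/+ feeding table, with which all 1523 shared fasted and 1719 shared refed events had the same counts.

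All 4 groups entered 1 limma fit with a variance trend (limma 3.58.1, R 4.3.3) on log2(RPKM + 1), restricted to the 11507 genes whose mean was 0.5 RPKM or more, with the Benjamini-Hochberg adjustment made over all of them. For exon events, the log2 of inclusion over skipping counts per length, each raised by 0.5, was fitted with limma where no library had under 10 counts. Values under 0.1 RPKM gave the libraries' relative depth. With it, all 16814 genes measured in 4 or more libraries came out as whole reads, within 0.0001 of a whole number, and a divisor common to all reads of a gene would go unseen. These reads gave depths and a limma voom alternative. The steps were tested on simulated data. Promoters came from RefSeq and gene positions from GENCODE M21. Tables used Python 3.11.15 with numpy 2.4.6 and pandas 2.3.3, and figures matplotlib 3.10.9.

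The members and lists were chosen with earlier results of these data known. Named genes are the members, Lpin1, the genes of other lists past the threshold (beyond 5, the 3 of largest change in each direction), the 5 most and 3 least like the metallothioneins, and exon events called or, among those tested, with the most counts of the rarer form in their gene. Fkbp5, Lcn2, Tsc22d3, Zbtb16, and the levels of Per1 within a group were named after their values were seen. Deviations from the group means of same-numbered libraries correlated at 0.162 to 0.297 in all 3 pairs of the refed groups (other pairs -0.25 to 0.07). This hint of pairing comes from the data and not from the labels. The main fit left pairing out, and the replicate block is an alternative, given beside the refed genotype calls it changed. In the other comparisons at most 1 of 3 pairs exceeded 0.1, while pairs of unlike number reached 0.49 for genotype in fasted liver. Fasted Lpin1+/+ and refed Lpin1-/- liver were not compared directly, but both enter the fit of all groups. Their same-numbered libraries correlated at 0.743, 0.545, and 0.390, and those of unlike number at -0.700 to 0.628. Since 3 against 3 libraries cannot reach 0.05 in an exact permutation test, none is given. Alternatives were a pseudocount of 0.1, no minimum or 5 RPKM, rescaling by the median ratio, the replicate number as a block, only the groups compared, each library left out, and for events 20 counts, 1 added, or 5 counts of the rarer form. Leaving out both libraries that stood apart, voom, and the block in the refed groups alone were added after seeing the data.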

Additional observations from a re-analysis of the deposited data

How the results depend on the processing

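Counts of called genes and events are given here. For the other zinc genes, refeeding called 2 in Lpin1+/+ liver and 1 with a minimum of 5 RPKM, with rescaling, or with the replicate block, and 0 with only the groups compared. In Lpin1-/- liver it called 7, and 3 with both libraries that stood apart left out. Genotype in fasted liver called 7, 3 with only the groups compared, and 4 with limma voom. Genotype in refed liver called 2, 0 with the replicate block or only the groups compared, and 1 with a pseudocount of 0.1, no minimum, a minimum of 5 RPKM, both libraries left out, or voom. The interaction called 0, and 1 with a pseudocount of 0.1, no minimum, a minimum of 5 RPKM, rescaling, or voom. Copper genes called by genotype were 6 in fasted liver (3 with only the groups compared) and 1 in refed liver (2 with rescaling, 0 with only the groups compared). Glucocorticoid genes were 2 with refeeding in Lpin1-/- liver (1 with no minimum, the replicate block, or both libraries left out) and 3 by genotype in refed liver (5 with only the groups compared). Exon events in fasted liver were 4, and 2 when the rarer form had to reach 5 counts, which in refed liver left no member event to test.

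With 1 library left out, the ranges were 0 to 2, 3 to 9, 2 to 7, 0 to 2, and 0 to 1 for the zinc genes in the order above, 0 to 1 for copper genes with refeeding in Lpin1+/+ liver, 4 to 6 and 0 to 2 by genotype in fasted and refed liver, 0 to 2 for glucocorticoid genes with refeeding in Lpin1-/- liver, 3 to 7 and 1 to 5 by genotype, and 2 to 4 for exon events in fasted liver. The replicate block is given beside the refed genotype calls it changed. In the refed groups alone it called 1 zinc, 1 copper, and 4 glucocorticoid genes. In the other comparisons the libraries share only a number, and apart from the counts given the replicate block moved no list's count by over 1.5 times. Over all genes it called 93 in place of 198 with refeeding in Lpin1+/+ liver and 81 in place of 147 for the interaction. Exon counts carry no replicate numbers. Log2 differences of Mt1 and Mt2 between genotypes stayed within 3.51 to 5.41 and 3.44 to 5.58 with 1 library left out. The cause of these changes was not tested, and low counts limit the values of Slc39a5, Mt3, and the skipping of Slc30a10.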
